A study of Mus musculus with 8 samples.

Results

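The 42 genes described here make ribosomes: they encode proteins that transcribe, modify, cut and fold ribosomal RNA (rRNA) in the nucleolus and build the ribosomal subunits. They were taken by symbol from the gene column of the deposited matrices, and all 42 were found among the 31053 genes listed there. By role, 5 belong to RNA polymerase I (Pol I) transcription, 6 are nucleolar scaffolds and chaperones, 3 form the core of the box C/D small nucleolar ribonucleoproteins (snoRNPs), 4 form the box H/ACA snoRNPs, 12 assemble the small subunit and 12 the large subunit.

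Transcripts were counted in single cells of SN4741, a clonal mouse line derived from embryonic substantia nigra that carries a heat-sensitive SV40 T antigen driven by the Th promoter, in 8 libraries. The 4 libraries of the permissive condition came from cells kept at 37 °C with 10% serum, and the 4 of the non-permissive condition from cells moved to 39 °C with 0.5% serum, 24 hours after passage and for 48 hours, which is the treatment used to start differentiation. All 8 share the line, its T antigen transgene and the genotype label WT, and temperature and serum cannot be told apart in any comparison below. The labels do not say whether replicates were separate cultures, so p-values measure the spread between these libraries, which may be technical.

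After filtering, 18351 of 19125 cells remained (8550 from 37 °C cultures, 9801 from 39 °C cultures), giving 17166686 to 29633818 unique molecular identifiers (UMIs, 1 for each captured transcript molecule) per library. The 39 °C replicate 1 had the fewest cells, 985, and the highest median depth, 16665 UMIs per cell, against 6676 to 15413 in the other 7. The line is labelled as neural precursor cells. Of 9 markers of such cells, 3 (Nes, Sox2 and Vim) reached 1 CPM at either temperature, and Hes5 was at 0 UMIs at both. CPM are counts scaled to an equal total per library, or per temperature for single markers. The 9 precursor markers summed to 5638 to 6013 CPM at 37 °C and 5191 to 5803 CPM at 39 °C across libraries. Most of this was Vim. The 9 mesenchymal markers summed to 2070 to 2131 CPM in the 37 °C libraries and 864 to 889.8 CPM in the 39 °C libraries. Of these, 6 reached 1 CPM (not Thy1, Lum and Dcn). Of 8 dopaminergic neuron markers 3 did so (Foxa2 at 13.99 and 12.79 CPM at 37 °C and 39 °C, Nr4a2 at 3.67 and 4.44, Aldh1a1 at 1.19 and 1.24), while Th, Slc6a3 and Pitx3, which define these neurons, had 1 to 4 UMIs at each temperature. The part of these other markers in the results below was not tested.

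As background, Pol I transcribes the long rRNA precursor from the ribosomal DNA repeats. Box C/D snoRNPs methylate its riboses and box H/ACA snoRNPs turn some of its uridines into pseudouridine, each guided by a small nucleolar RNA (snoRNA) that pairs with the target. The small subunit processome and the large subunit assembly factors then fold and cut the precursor, and most of them leave before the subunits reach the cytoplasm. The genes are used most by growing and dividing cells, and several are known targets of the transcription factor MYC.

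The snoRNAs link 6 members to the machinery that other members encode, because most mammalian snoRNAs are cut from introns of protein-coding genes. In the GENCODE M21 annotation of GRCm38 (the same assembly as mm10), 6 of 42 members (14.29%) contain snoRNA genes on their own strand, against 243 of 13993 tested protein-coding genes (1.737%). These 6 hosts hold 19 snoRNA genes: 5 in Nop56, 4 in Nop58, 3 each in Ncl, Wdr43 and Gnl3, and 1 in Dkc1. Of the 19, 18 overlap no exon of a protein-coding transcript of the host. The following 5 are examples from Nop56, Nop58, Ncl and Wdr43 that hold the letters marked. In the 4 box C/D snoRNAs, capitals mark the box C letters TGATGA within the first 20 bases and the box D letters CTGA within the last 20 bases, and in the H/ACA snoRNA Snora75 they mark the ACA within the last 8 bases.
Snord110 in Nop56, chr2:130275506-130275573 (+): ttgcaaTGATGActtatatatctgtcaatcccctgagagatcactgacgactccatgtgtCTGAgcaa
Snord11 in Nop58, chr1:59704790-59704873 (+): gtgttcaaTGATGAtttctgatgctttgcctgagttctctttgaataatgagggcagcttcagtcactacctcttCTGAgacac
Snord82 in Ncl, chr1:86356261-86356330 (-): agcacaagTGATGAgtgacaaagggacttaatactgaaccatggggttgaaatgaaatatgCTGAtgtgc
Snord92 in Wdr43, chr17:71631281-71631365 (+): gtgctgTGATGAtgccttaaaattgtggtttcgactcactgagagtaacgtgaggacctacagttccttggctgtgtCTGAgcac
Snora75 in Ncl, chr1:86351169-86351301 (-): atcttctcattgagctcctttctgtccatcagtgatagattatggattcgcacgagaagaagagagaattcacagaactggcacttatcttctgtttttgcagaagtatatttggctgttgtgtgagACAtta

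The boxes in capitals are where the core proteins of the snoRNP assemble, which are themselves members (Fbl, Nop56 and Nop58 for box C/D, and Dkc1, Gar1, Nhp2 and Nop10 for box H/ACA). The sequences are those of GENCODE, written as DNA from 5′ to 3′. Not every snoRNA of the hosts held these letters in the same stretches. Snord19, Snord57 and Snord70 lacked TGATGA, Snord53 lacked CTGA, and Gm25520 in Dkc1 held none of them. The snoRNAs themselves were not analysed here, so every value below is for the host's messenger RNA.

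The 42 genes together gave 0.604% ± 0.0162 (SD, n = 4) of all UMIs at 37 °C, from 0.589% to 0.627%, and 0.477% ± 0.00641 (SD, n = 4) at 39 °C, from 0.469% to 0.483%. No 39 °C library reached the lowest 37 °C value of this share. Npm1 and Ncl held much of it: Npm1 was 36.1% of the members' UMIs at 37 °C and 39.2% at 39 °C, and Ncl was 13.8% and 9.83%. Without these 2 genes the share was 0.302% at 37 °C and 0.243% at 39 °C. Per cell, the members gave 82.7 ± 15.6 UMIs (mean of 4 libraries ± SD) at 37 °C and 53.9 ± 19.96 UMIs at 39 °C, a measure that also follows the depth of each library.

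At 39 °C, 31 of the 42 members were lower and 4 were higher, with 7 not passing, where passing means an adjusted p under 0.05 in edgeR's quasi-likelihood test on the summed counts of each library. Over all 15810 genes tested, 30.5% were lower and 31.5% were higher by the same rule, so the members' share of lower genes was above the background and their share of higher genes below it. The median log2 fold change (39 °C over 37 °C) was -0.35 over the members and 0.02 over all genes tested, and 34 of 42 members lay below 0. Sizes were moderate: 0 members passed the stricter rule of an adjusted p under 0.01 with a log2 change over 1.5 in size, where 3.62% of all genes were lower and 2.21% were higher. In 28 members every 39 °C library lay below every 37 °C library and in 3 every one lay above, against 28% and 28.7% of all genes tested.

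**Figure D1:**
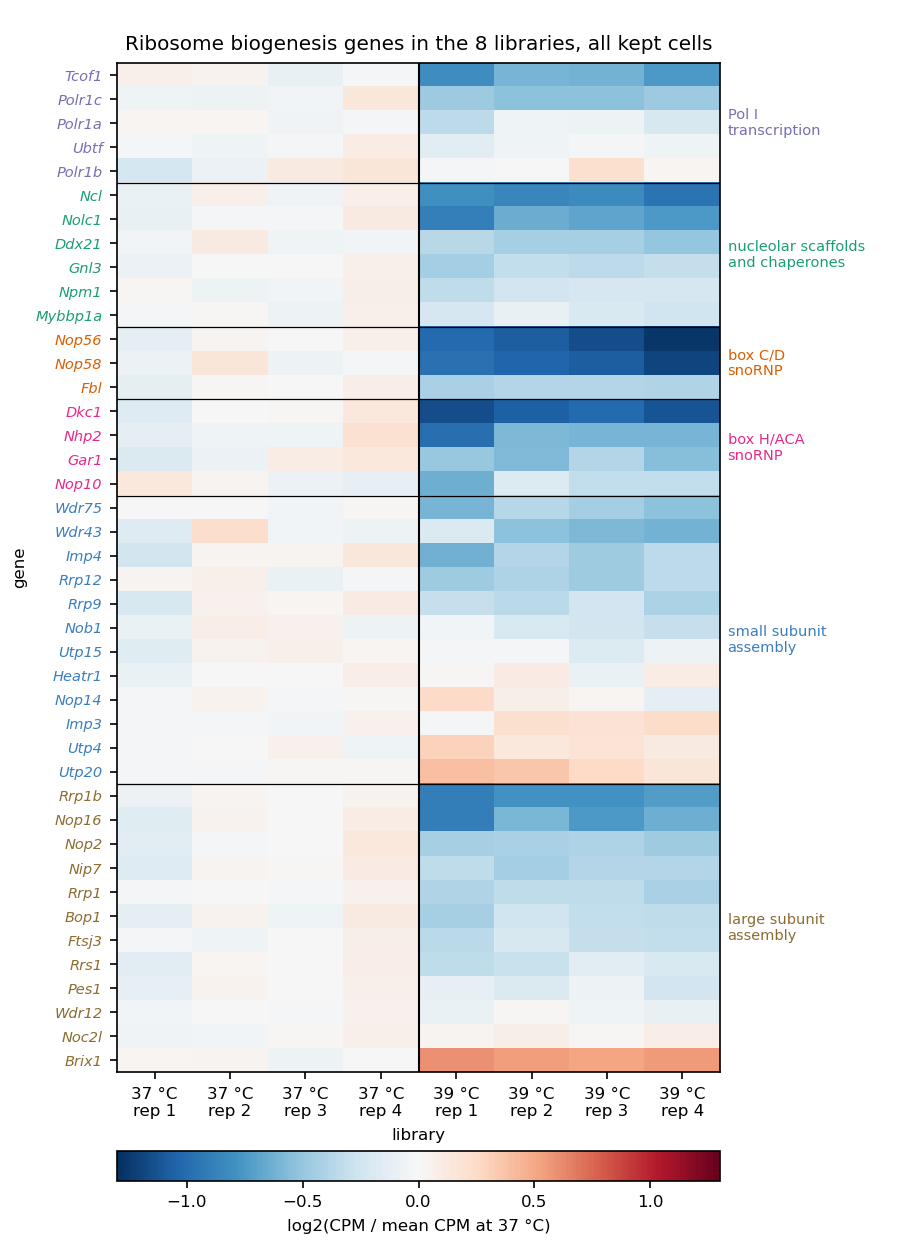
Level of each of the 42 members (rows, grouped and coloured by role) in each of the 8 libraries (columns), as log2 of CPM over the mean CPM of the 37 °C libraries. Blue is lower and red is higher than that mean: the snoRNP rows are blue in every 39 °C library, from Nop56 at a fold change of -1.12 to Nop10 at -0.35 on the log2 scale, and Brix1 is the reddest row at 0.55.

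Both snoRNP groups fell throughout, 3 of 3 members for box C/D and 4 of 4 for box H/ACA, with medians of -1.06 and -0.59. Nop56, a core box C/D protein at chr2:130274430-130279313 (+), had 159.9, 178, 174 and 182 CPM in the 37 °C libraries and 86.2, 82.4, 78.2 and 72.4 CPM in the 39 °C libraries. Every 39 °C library lay below the lowest 37 °C library by a wide margin, and the log2 fold change was -1.12 (SE 0.057, adjusted p = 2.2e-12), the lowest of all members. Nop58, its partner in the same core, at chr1:59684971-59719044 (+), had 154, 181, 155 and 159.7 CPM in the 37 °C libraries and 82.7, 79.5, 77.5 and 71.2 CPM in the 39 °C libraries, and its log2 fold change was -1.06 (SE 0.058, adjusted p = 6.9e-12). Fbl, fibrillarin, the methyltransferase of the complex, moved less, from 114 ± 6.75 to 86.96 ± 1.16 CPM (SD, n = 4), and its log2 fold change was -0.39 (SE 0.048, adjusted p = 7.52e-07).

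In the box H/ACA group, Dkc1, dyskerin, the pseudouridine synthase, had 58.2, 65.3, 66.1 and 71.8 CPM in the 37 °C libraries and 29.3, 31.3, 32.5 and 29.95 CPM in the 39 °C libraries. The groups did not overlap and the log2 fold change was -1.08 (SE 0.060, adjusted p = 7.55e-12). The gene lies at chrX:75095854-75109777 (+). Nhp2 had 217, 227, 227 and 269.7 CPM in the 37 °C libraries and 119, 157, 155 and 155 CPM in the 39 °C libraries. Its lowest value was that of 39 °C replicate 1, the library with the fewest cells, and its log2 fold change was -0.68 (SE 0.078, adjusted p = 2.96e-07). Gar1 and Nop10, the small partners of dyskerin, had log2 fold changes of -0.50 (SE 0.066, adjusted p = 1.82e-06) and -0.35 (SE 0.075, adjusted p = 0.000436).

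All 6 nucleolar scaffolds and chaperones fell, with a median of -0.39. Ncl, nucleolin, an abundant RNA-binding protein of the nucleolus, at chr1:86344719-86359400 (-), had 793, 882, 812 and 879 CPM in the 37 °C libraries and 485, 467, 473 and 432 CPM in the 39 °C libraries. The 4 libraries of 39 °C sat close together, well below those of 37 °C, and the log2 fold change was -0.86 (SE 0.056, adjusted p = 8.67e-11). Npm1, nucleophosmin, a histone chaperone and scaffold of the outer nucleolus, had 2244, 2109, 2152 and 2322 CPM in the 37 °C libraries and 1753, 1862, 1901 and 1898 CPM in the 39 °C libraries, with a smaller log2 fold change of -0.25 (SE 0.056, adjusted p = 0.000691). Npm1 has near-identical processed pseudogenes, so reads may have been lost or split among copies. The other 4 were Nolc1, a chaperone of snoRNPs (-0.73), Ddx21, an RNA helicase (-0.43), Gnl3, nucleostemin (-0.35), and Mybbp1a, a Pol I-associated protein (-0.19).

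Pol I transcription was mixed, with 3 of 5 members lower, 0 higher and a median of -0.15. Polr1a, the largest subunit, had 22.6, 22.6, 21.6 and 22.01 CPM in the 37 °C libraries and 17.5, 21.4, 21.1 and 19.2 CPM in the 39 °C libraries, and its log2 fold change was -0.15 (SE 0.060, adjusted p = 0.0338). That pass was lost without 37 °C replicate 2 (adjusted p = 0.0698), without 39 °C replicate 1 (0.0863) or without 39 °C replicate 4 (0.0737). Polr1b, the second largest subunit, did not pass, with 5.07, 5.62, 6.45 and 6.60 CPM in the 37 °C libraries and 5.84, 5.94, 6.87 and 6.05 CPM in the 39 °C libraries and a log2 fold change of 0.06 (SE 0.098, adjusted p = 0.594). The libraries of the temperatures overlapped. Ubtf, the factor that keeps ribosomal DNA open for Pol I, did not pass either (-0.07 (SE 0.049, adjusted p = 0.23)). The 2 clearest falls were Tcof1, treacle, a cofactor of Pol I, from 77.6 ± 3.86 to 48.04 ± 3.34 CPM (SD, n = 4; log2 fold change -0.69), and Polr1c, a subunit shared with RNA polymerase III (-0.51).

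Small subunit assembly held members on both sides, 6 lower and 3 higher of 12, with a median of -0.13. The share of lower genes was above that over all genes tested, and the share of higher genes was below it. The 6 lower were Wdr75 (-0.48), Wdr43 (-0.48), Imp4 (-0.44), Rrp12 (-0.41), Rrp9 (-0.33) and Nob1 (-0.20), the last being the endonuclease that makes the final end of small-subunit rRNA. Heatr1, a large scaffold of the processome, did not pass, with 17.4, 18.4, 18.4 and 19.7 CPM in the 37 °C libraries and 18.7, 19.9, 17.4 and 19.8 CPM in the 39 °C libraries, a log2 fold change of 0.04 (SE 0.060, adjusted p = 0.627) and overlapping libraries. Utp20, another large processome component, rose: it had 66.5, 67.05, 68.5 and 68.2 CPM in the 37 °C libraries and 88.7, 86.8, 80.6 and 75.2 CPM in the 39 °C libraries, with every 39 °C library above every 37 °C library and a log2 fold change of 0.29 (SE 0.051, adjusted p = 5.49e-05). Utp4 rose by less (0.18 (SE 0.057, adjusted p = 0.011)), and its pass was lost without 39 °C replicate 1 (adjusted p = 0.0528).

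Imp3, a partner of Imp4 in the processome, had 136, 136, 134 and 143 CPM in the 37 °C libraries and 135, 159, 157 and 162 CPM in the 39 °C libraries. Replicate 1 of 39 °C lay among the 37 °C libraries while the other 3 lay above them all. Its log2 fold change was 0.16 (SE 0.055, adjusted p = 0.016), and the pass was lost without 37 °C replicate 1 (adjusted p = 0.0733), 37 °C replicate 3 (0.0586), 39 °C replicate 2 (0.0562) or 39 °C replicate 4 (0.0771). Nop14 did not pass (0.06 (SE 0.059, adjusted p = 0.415)), and neither did Utp15 (-0.07, adjusted p = 0.346).

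Large subunit assembly had 9 of 12 members lower and 1 higher, with a median of -0.31. Rrp1b fell most, from 42.9 ± 1.59 to 24.8 ± 1.22 CPM (SD, n = 4; log2 fold change -0.79 (SE 0.050, adjusted p = 6.58e-11)), while its paralog Rrp1 changed by -0.37. The partners of 1 complex that works on the large-subunit precursor did not move equally: Bop1 had a log2 fold change of -0.33 (SE 0.056, adjusted p = 3.89e-05), Pes1 -0.15 (SE 0.052, adjusted p = 0.0167) and Wdr12 -0.06 (SE 0.045, adjusted p = 0.306). The pass of Pes1 was lost without 39 °C replicate 2 (adjusted p = 0.0524) or 39 °C replicate 4 (0.058), and the differences between the 3 genes were not tested. The others that fell were Nop16 (-0.71), Nop2 (-0.43), Nip7 (-0.38), Ftsj3 (-0.29) and Rrs1 (-0.23), and Noc2l did not pass (0.05, adjusted p = 0.368).

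Brix1, an early large-subunit assembly factor at chr15:10474779-10485947 (-), went the other way. It had 103, 104, 97.4 and 101 CPM in the 37 °C libraries and 154, 149, 145 and 149 CPM in the 39 °C libraries. No 39 °C library came as low as any 37 °C library, and its log2 fold change of 0.55 (SE 0.044, adjusted p = 1.75e-09) was the highest of the 42 members.

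The snoRNA hosts among the members were at the low end. The median log2 fold change was -0.96 over the 6 hosts and -0.31 over the other 36 members. The 4 lowest fold changes of all 42 members belonged to hosts, Nop56 (-1.12), Dkc1 (-1.08), Nop58 (-1.06) and Ncl (-0.86), followed further up by Wdr43 (-0.48) and Gnl3 (-0.35). This was seen after the values were known and carries no test. Of 12 noncoding snoRNA host genes listed outside the members, 3 were read here by symbol and 9 were not analysed here. Of the 3, Snhg12 was higher by 1.44 (adjusted p = 9.8e-13) and Snhg18 by 0.42 (adjusted p = 0.0118), and Snhg6 did not pass (0.31, adjusted p = 0.0603).

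Of 113 other genes of ribosome assembly, 53 were lower and 22 higher at 39 °C, with a median of -0.11. Their share of lower genes was above the share over all genes tested, and their share of higher genes was below it. The same held for the other snoRNP and other small subunit lists. Other snoRNP assembly factors had 7 of 10 lower and 1 higher, with Ruvbl1, a helicase-like assembly factor (-0.64), Znhit3 (-0.59) and Snu13, the protein that binds box C/D RNA first (-0.55), lower and Znhit6 (0.62) higher. Other small subunit factors had 23 of 48 lower and 5 higher, with Noc4l (-0.65) lowest and Pwp2 (0.59) highest among those that passed. Other large subunit factors were closer to even, 19 of 45 lower and 13 higher, the latter near the share over all genes. They ran from Eif6, which keeps the subunits apart (-0.83), to Nop53 (0.42). The remaining Pol I machinery had 4 of 10 lower and 3 higher, near the shares over all genes. Polr1g (-0.66) and Polr1e (0.67) were at its ends.

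**Figure D2:**
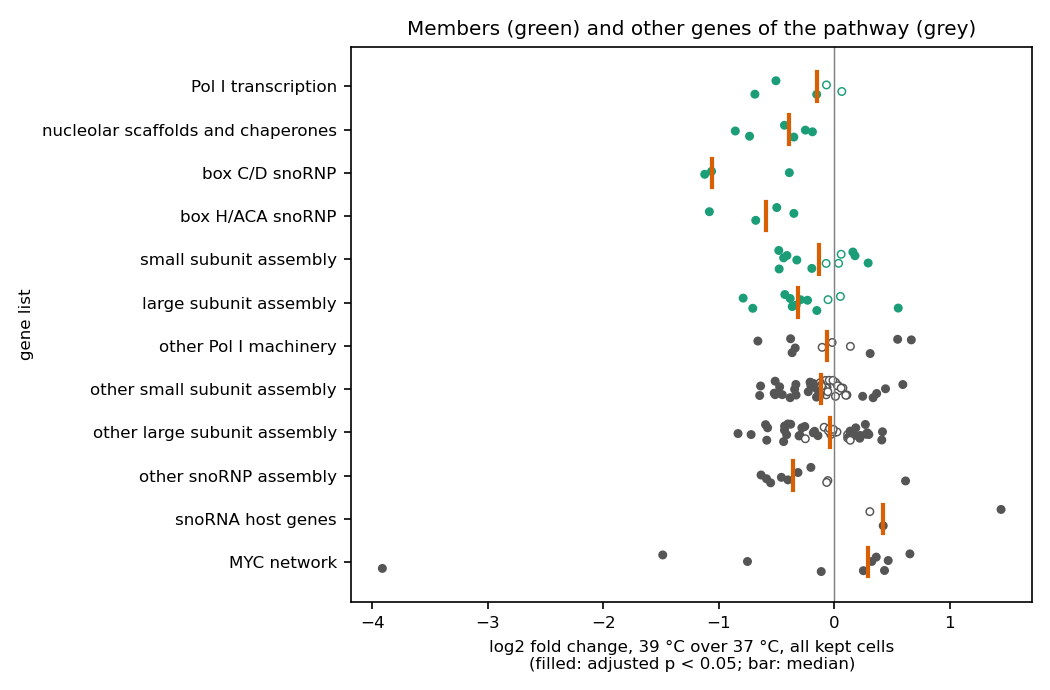
Log2 fold change (39 °C over 37 °C, all kept cells) of each gene in the 6 role groups of members (green) and in 6 lists of other genes (grey). Each point is a gene, filled where it passed the test, and the bar is the list's median. The box C/D bar lies lowest at -1.06, and the bars of the other small and large subunit lists lie at -0.12 and -0.04.

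Myc, the factor known to drive many of these genes, had 17.5, 17.3, 21.98 and 20.7 CPM in the 37 °C libraries and 12.1, 9.20, 12.8 and 11.99 CPM in the 39 °C libraries. All 39 °C libraries lay below all 37 °C libraries, and the log2 fold change was -0.75 (SE 0.094, adjusted p = 9.21e-07). Of the 10 tested genes of the MYC network 4 were lower and 6 higher at 39 °C, both above the shares over all genes tested. The lower genes were Myc, Mycl, Mlx and Mxd3, and Max itself was among the higher genes. Among the factors that compete with MYC for their partner Max, Mxi1 (0.65), Mxd1 (0.47), Mxd4 (0.36), Mga (0.43) and Mnt (0.32) were higher, and Mxd3, known from dividing cells, was the lowest of the list (-3.91 (SE 0.107, adjusted p = 2.61e-16)).

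MYC and Max bind the E-box CACGTG. Promoter windows of 250 bases before to 50 bases after the gene start, from RefSeq on GRCm38.p6, were found for 36 of the 42 members. The E-box (read on both strands, on which it is the same) occurred in 7 of 36 members (19.44%) and in 11.2% of 11492 tested genes. The 7 were Wdr43, Imp4, Nop2, Mybbp1a, Pes1, Utp4 and Utp20. Their median log2 fold change was -0.19, against -0.35 for the 29 without the letters, and the windows of Nop56 and Dkc1, the members that fell most, did not hold them. The ETS letters CCGGAAG on either strand were in 10 of 36 members (27.78%) and 18.38% of tested genes, and the YY1 letters AAGATGG in 2 of 36 (5.556%) and 8.101%. The TATA letters TATAAA were in 2 of 36 members (5.556%) and 9.45% of tested genes. A match is only a match of letters in this window, and its absence says nothing about a factor.

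Cells were next split by Mki67, the gene of the proliferation marker Ki-67, because the share of cells with its transcripts differs between the temperatures. Cells with at least 1 Mki67 UMI were 56.0% ± 3.55 (SD, n = 4) of the kept cells at 37 °C. At 39 °C they were 6.26% ± 0.842 (SD, n = 4), which is -49.7 points away (two-sided exact permutation test over 70 assignments of libraries, p = 0.0286, the smallest it can give, adjusted p = 0.0571 over 2 measures). They numbered 951 to 1492 per library at 37 °C and 73 to 190 at 39 °C. Exactly 1 Mki67 UMI was held by 1104 of 4746 such cells at 37 °C and 267 of 587 at 39 °C. The class with Mki67 UMIs was thus not made up alike at both temperatures. A cell without a UMI may still express Mki67, and cells with one were deeper, with median UMIs of 14474 against 10635 at 37 °C and 12021 against 10350 at 39 °C. Thinned to 5000 UMIs per cell, with 668 and 1668 shallower cells left out, the shares were 43.7% and 4.47%.

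Within cells without Mki67 UMIs, 30 of 42 members were lower at 39 °C and 2 were higher, against 27.1% and 29.7% of 15040 genes tested, and the median was -0.32. Within cells with Mki67 UMIs, 24 were lower and 2 higher, against 18.6% and 15% of 14405 genes tested, and the median was -0.28. The members' share of UMIs was lower at 39 °C in both classes, 0.595% against 0.475% in cells without and 0.609% against 0.511% in cells with Mki67 UMIs. The sums of Mki67-positive cells at 39 °C held 1342821 to 2191676 UMIs, the smallest of all sums, and the count of lower members there was 6 when cells were thinned to 5000 UMIs, which left these sums 205000 to 630000 UMIs. The median there was smaller too, at -0.15 in thinned cells, against -0.34 in thinned cells without Mki67 UMIs. The count ranged from 19 (without 39 °C replicate 4) to 25 over the libraries left out.

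**Figure D3:**
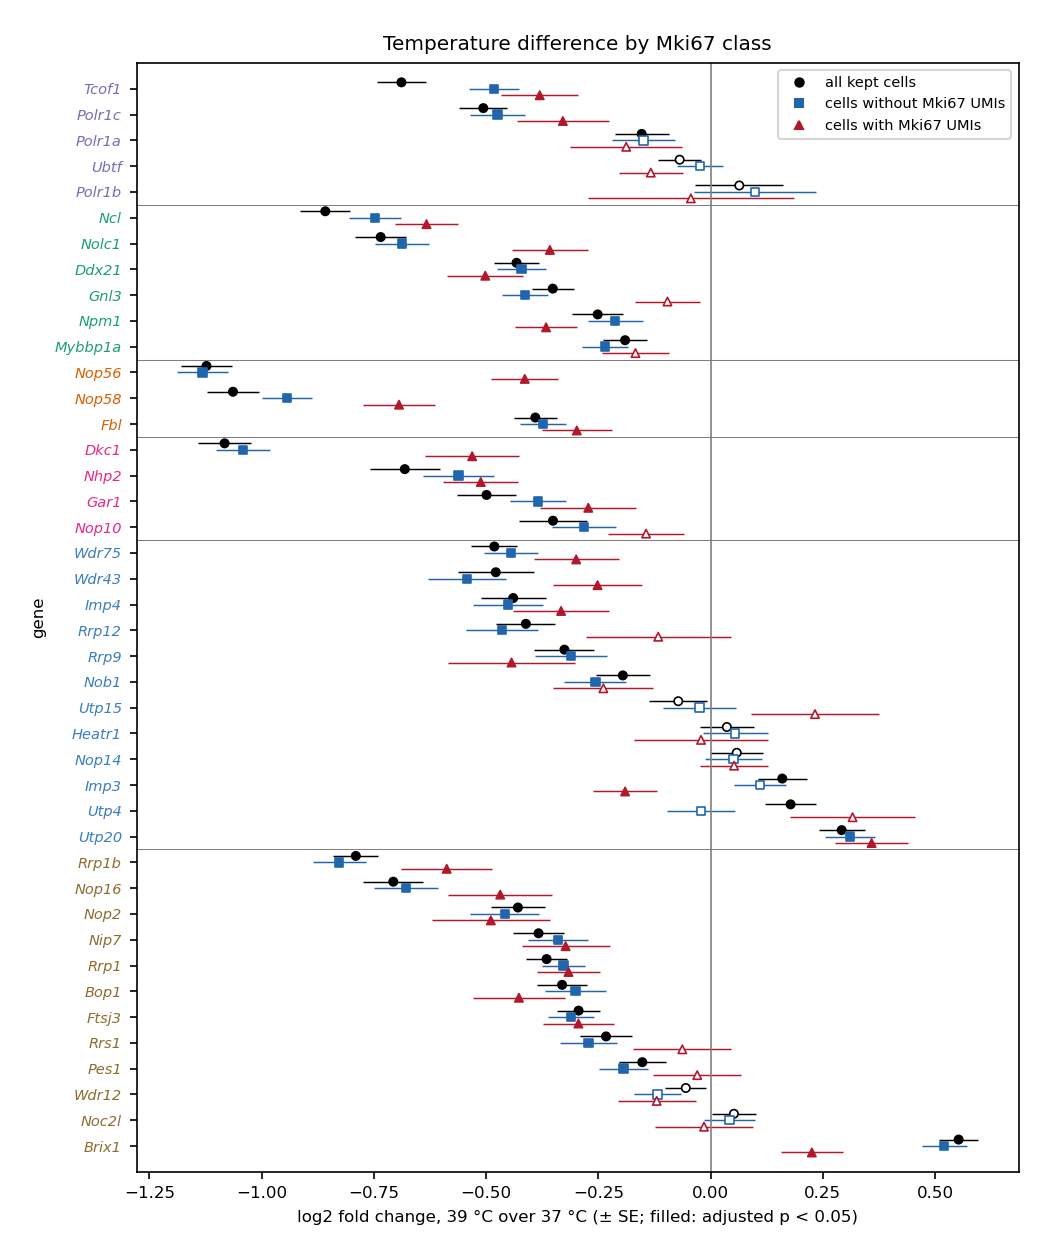
Log2 fold change (39 °C over 37 °C, with its standard error) of each member in all kept cells (black circles), in cells without Mki67 UMIs (blue squares) and in cells with them (red triangles), filled where the member passed. Circles and squares lie close for most members, while for Nop56, Dkc1, Gnl3 and Brix1 the triangle lies nearer 0, at -0.41, -0.53, -0.10 and 0.23.

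Single members split more sharply by class. In cells without Mki67 UMIs Nop56 had a temperature difference of -1.13 (SE 0.058, adjusted p = 4.35e-13), and in cells with them -0.41 (SE 0.075, adjusted p = 4.62e-05). Dkc1 had -1.04 (SE 0.061, adjusted p = 3.32e-12) and -0.53 (SE 0.105, adjusted p = 0.000147). In thinned cells neither passed in the Mki67-positive class, where Nop56 was at -0.25 (adjusted p = 0.105) and Dkc1 at -0.24 (adjusted p = 0.347). Gnl3 passed in cells without (-0.41 (SE 0.052, adjusted p = 5.43e-07)) and not in cells with Mki67 UMIs (-0.10 (SE 0.073, adjusted p = 0.34)). Utp4, higher in all cells together, passed in neither class (-0.02, adjusted p = 0.834, and 0.32, adjusted p = 0.0818). Imp3 was lower at 39 °C in cells with Mki67 UMIs (-0.19 (SE 0.071, adjusted p = 0.0356)), opposite to its direction in all cells, but that value became 0.0028 (adjusted p = 0.996) in thinned cells. Utp20 and Brix1 were higher in both classes, Utp20 by 0.31 and 0.36 and Brix1 by 0.52 and 0.23, but in the Mki67-positive class both lost their pass in thinned cells (0.29, adjusted p = 0.14, and 0.16, adjusted p = 0.431), and Brix1 also without 39 °C replicate 3 (adjusted p = 0.0696) or with at least 2 Mki67 UMIs per positive cell (0.209).

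Comparing the classes within libraries, the members as a whole differed little at 37 °C. At 37 °C, 9 of 42 were higher and 4 lower in cells with Mki67 UMIs, against 19.8% and 15.3% of 14744 genes tested, with a median of 0.03. At 39 °C, 12 were higher and 3 lower, against 13.1% and 14.9%, with a median of 0.10 where all genes had -0.05. The box H/ACA group was higher in 4 of 4 members at both temperatures, with medians of 0.19 and 0.30. In cells thinned to 5000 UMIs 0 of these 4 passed at 37 °C, where Dkc1 was at 0.12 (adjusted p = 0.182), Gar1 at 0.10 (adjusted p = 0.321), Nhp2 at 0.08 (adjusted p = 0.113) and Nop10 at 0.04 (adjusted p = 0.535), and 3 of 4 passed at 39 °C, without Gar1 (0.27, adjusted p = 0.355). Neither subunit assembly group had more than 2 of 12 members passing as higher at either temperature.

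At 37 °C the highest differences between classes were those of Tcof1 (0.38 (SE 0.041, adjusted p = 4.19e-16)), Nop58 (0.26 (SE 0.033, adjusted p = 3.46e-12)) and Nhp2 (0.22 (SE 0.029, adjusted p = 2.24e-11)). Tcof1 had 66.7, 67.7, 63.4 and 67.3 CPM in cells without and 93.6, 88.7, 79.5 and 84.3 CPM in cells with Mki67 UMIs, and was higher in the latter in 4 of 4 libraries. The lowest were Utp4 (-0.34 (SE 0.076, adjusted p = 7.73e-05)), Imp3 (-0.13 (SE 0.034, adjusted p = 0.000886)) and Wdr12 (-0.12 (SE 0.046, adjusted p = 0.0331)), and Brix1 was also lower (-0.09 (SE 0.036, adjusted p = 0.0297)). Wdr12 lost its pass without 37 °C replicate 1 (adjusted p = 0.186) or replicate 4 (0.147), and Brix1 without 37 °C replicate 1 (0.0704), 2 (0.209) or 4 (0.0802).

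The differences at 37 °C changed in thinned cells, which are of equal depth, are classed by the Mki67 UMIs left and lack the shallower cells, so that these changes cannot be told apart. In them, 3 members were higher and 9 lower, and 3238 genes passed in either direction. Shares of all genes by direction were not worked out for thinned cells. These counts are therefore not read as a result about the members. Tcof1 (0.25 (adjusted p = 0.000181)), Nop58 (0.14 (adjusted p = 0.00802)) and Ncl (0.08 (adjusted p = 0.00701)) were still higher, while Nop56 turned from 0.12 to -0.09 (adjusted p = 0.131), Npm1 from 0.05 to -0.08 (adjusted p = 0.000372), Fbl from 0.04 to -0.16 (adjusted p = 0.00978) and Ddx21 from 0.01 to -0.15 (adjusted p = 0.0346). At 39 °C thinning left 8 higher and 3 lower, with 2341 genes passing in either direction.

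At 39 °C the highest differences between classes were those of Nop56, Dkc1 and Nop58, which are snoRNP proteins. Fbl, of the same core as Nop56 and Nop58, did not pass (0.12 (SE 0.063, adjusted p = 0.173)) and was higher in 2 of 4 libraries. Nop56 had 81.02, 78.4, 74.3 and 69.2 CPM in cells without and 151, 145, 126 and 119 CPM in cells with Mki67 UMIs. Cells with Mki67 UMIs were above those without in 4 of 4 libraries and the classes did not overlap, and the log2 difference was 0.83 (SE 0.057, adjusted p = 8.41e-31). Dkc1 had 29.2, 30.8, 30.6 and 28.3 CPM and 33.3, 41.6, 56.1 and 54.2 CPM, a difference of 0.67 (SE 0.092, adjusted p = 2.19e-10) that was small in replicate 1 and large in replicates 3 and 4. Nop58 differed by 0.51 (SE 0.061, adjusted p = 6.59e-13), Tcof1 by 0.48, Nolc1 by 0.46 and Ncl by 0.33, each higher in 4 of 4 libraries.

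The members lower in the Mki67-positive cells of 39 °C were Imp3, Brix1 and Npm1. Imp3 had 137, 163, 160.3 and 167 CPM in cells without and 122, 119, 119 and 106 CPM in cells with Mki67 UMIs, a difference of -0.44 (SE 0.055, adjusted p = 3.24e-12). Brix1 had 159, 153, 147 and 153 CPM and 112, 108, 124 and 118 CPM, a difference of -0.39 (SE 0.055, adjusted p = 4.47e-10). Its levels in Mki67-positive cells at 39 °C were thus between those of the 37 °C cells (100.4 ± 2.16 CPM with Mki67 UMIs, SD, n = 4) and those of the other 39 °C cells (153 ± 4.7 CPM). Npm1 was lower by a little in 4 of 4 libraries (-0.11 (SE 0.024, adjusted p = 7.89e-05)). Rrp9, the third lowest value, did not pass (-0.13 (SE 0.142, adjusted p = 0.552)). Of the passes at 39 °C, those of Utp15 (0.39) and Wdr43 (0.22) were each lost without replicate 1, 3 or 4 of 39 °C, with adjusted p from 0.0695 to 0.301.

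**Figure D4:**
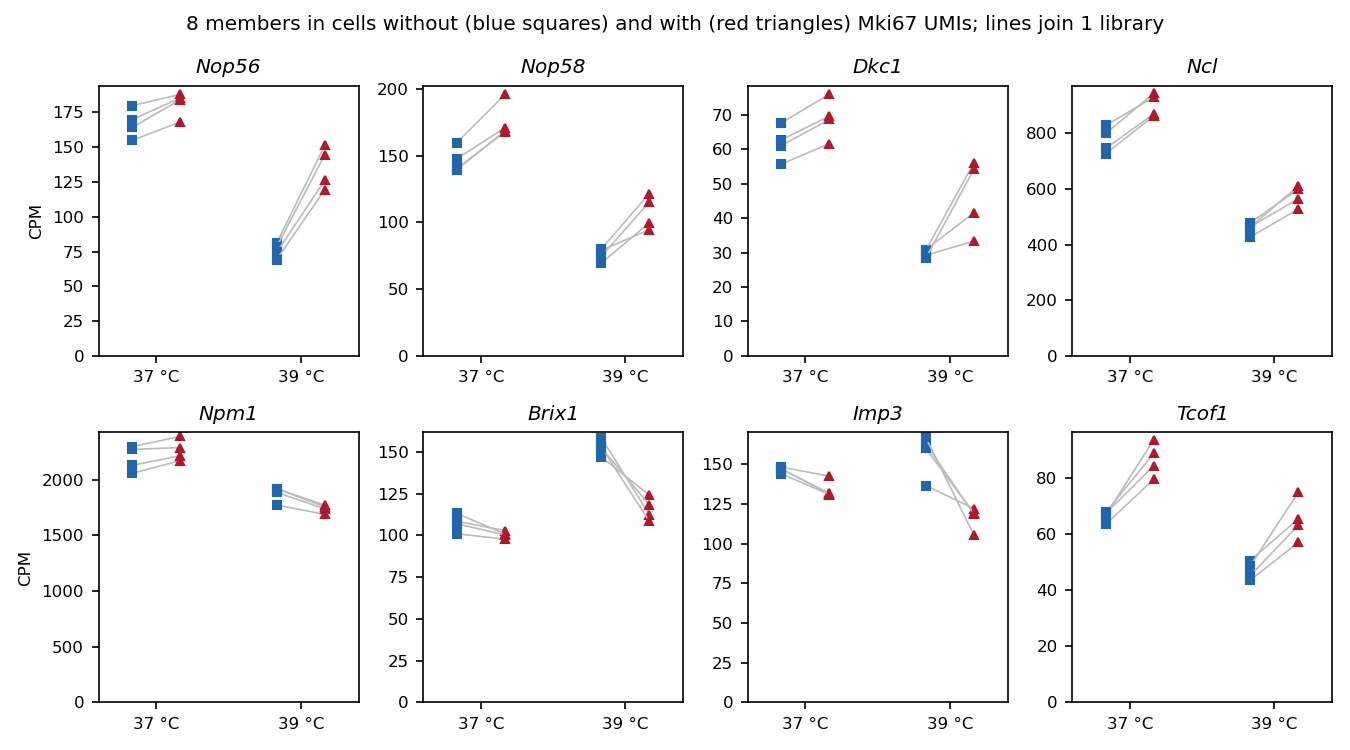
CPM of 8 members in cells without (blue squares) and with (red triangles) Mki67 UMIs. Each point is the sum of 1 class in 1 library, lines join the classes of a library, and each axis starts at 0. Nop56 at 39 °C rises from 69.2 to 81.02 CPM without to 119 to 151 CPM with Mki67 UMIs, and Brix1 and Imp3 fall in every 39 °C library.

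The difference between classes was itself compared between temperatures, which is the same as comparing the temperature difference between classes. It passed in 10 members, 7 with a more positive effect at 39 °C and 3 with a more negative one, against 5.45% and 7.83% of 14744 genes tested. The largest were Nop56 (0.71 (SE 0.064, adjusted p = 6.05e-20)), Dkc1 (0.51 (SE 0.101, adjusted p = 2.82e-05)) and Nolc1 (0.33 (SE 0.071, adjusted p = 0.000219)). Gnl3 (0.31), Wdr43 (0.30), Nop58 (0.25) and Ncl (0.11) were the other 4, and all 6 snoRNA hosts among the members were in this set of 7, an overlap seen afterwards and not tested. The 3 negative terms were Imp3 (-0.31 (SE 0.065, adjusted p = 9.73e-05)), Brix1 (-0.29 (SE 0.066, adjusted p = 0.000334)) and Npm1 (-0.16 (SE 0.032, adjusted p = 4.11e-05)).

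Of these 10, Nop56, Dkc1, Gnl3 and Brix1 passed under every alternative tried. Wdr43 and Nop58 lost their pass without 39 °C replicate 3 (adjusted p = 0.0776 and 0.0907), and Ncl, at 0.042 the closest to the threshold, lost it when any of 37 °C replicates 1 to 4 or 39 °C replicates 3 or 4 was left out (0.0523 to 0.227). In thinned cells the terms of Nop56 and Dkc1 were 0.88 (adjusted p = 7.35e-13) and 0.80 (adjusted p = 9.43e-05), while 3 of the 10 did not pass there: Imp3 (-0.15, adjusted p = 0.545), Npm1 (-0.09, adjusted p = 0.149) and Wdr43 (0.32, adjusted p = 0.297). Without the library block Nolc1 (adjusted p = 0.0842), Npm1 (0.319), Wdr43 (0.339), Nop58 (0.171) and Ncl (0.544) lost their pass, as did Npm1 with totals only (-0.06, adjusted p = 0.155) and Wdr43 with at least 2 Mki67 UMIs per positive cell (adjusted p = 0.0624).

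**Figure D5:**
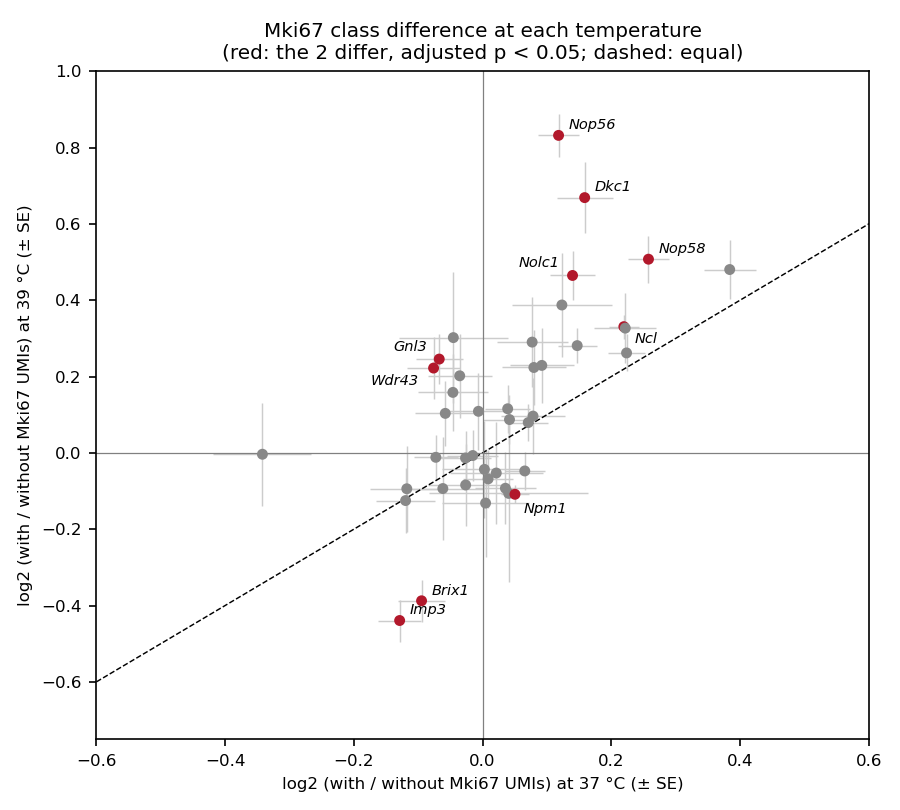
Log2 difference between cells with and without Mki67 UMIs at 37 °C (x axis) and at 39 °C (y axis) for each of the 42 members, with standard errors. Red points are the 10 members whose effects differed between temperatures and the dashed line marks equal effects. Nop56 and Dkc1 lie far above the line, at 0.83 and 0.67 on the y axis, and Imp3 and Brix1 lie below it.

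The members' share of UMIs was last set against the number of Mki67 UMIs in thinned cells. At 37 °C it was 0.596% ± 0.0236 (SD, n = 4) in cells with 0 Mki67 UMIs, 0.607% ± 0.0208 with 1, 0.575% ± 0.0269 with 2 and 0.557% ± 0.0203 with 3 or more. At 39 °C it was 0.473% ± 0.00586 with 0, 0.521% ± 0.0160 with 1 and 0.502% ± 0.0243 with 3 or more, and in the bin with 2 UMIs, where 1 library had a single cell, it was 0.471% ± 0.0747. The highest library value at 39 °C, 0.543% in cells with 1 Mki67 UMI, was just above the lowest at 37 °C, 0.539% in cells with 3 or more.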

How the data were processed

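Per the labels and the study's methods, cells were captured with the Chromium Single Cell 3′ V3 kit, and the authors aligned reads to mm10 with Cell Ranger 3.0.1 and deposited whole-number UMI counts per gene and cell, with no normalization. Values were therefore counts of transcript ends and levels were compared between libraries, not between genes.

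The study's limits removed 334 cells above 15% mitochondrial UMIs, 440 above 6000 genes and 29 below 200 genes, some by several limits. No doublet caller was run, so the upper limit on genes was the only step that bears on doublets. No 2 libraries had more than 5 cell barcodes in common, and libraries of the same temperature were not copies (chi-square of their counts 2.797 to 24.07 per degree of freedom).

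Raw counts were summed per library, or per library and Mki67 class, since the library is the replicate. Genes were tested where their mean was 1 count or more, in edgeR 4.0.16 (R 4.3.3, TMM factors, glmQLFit and glmQLFTest, two-sided) with temperature as the only term. The class comparison used 16 sums in 1 fit with the library as a block and an interaction term. P-values were adjusted by Benjamini-Hochberg over all genes tested. CPM used the TMM-scaled totals of tested genes, and a standard error is the fold change over the square root of F. The CPM of cell type markers instead used plain totals of all genes in kept cells. Single markers were pooled over the libraries of a temperature. Shares per library were compared in Python 3.11.15 by two-sided exact permutation. The procedure was tested on simulated data.

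The members and the lists were chosen with earlier results of these data known. Named were 12 anchor genes, the 5 lowest and 5 highest members, the 3 lowest and 3 highest per class comparison, members that passed against the majority, and the 3 largest interaction terms, with the other members given by role. The snoRNA hosts and Myc-network genes were described after their values were seen. Alternatives were RLE factors, totals only, other filters on genes and cells, DESeq2 1.42.0, thinning to 5000 UMIs, at least 2 Mki67 UMIs per positive cell, a replicate block or no library block, and each library left out. Positions and snoRNAs are from GENCODE M21 and promoters from RefSeq (GRCm38.p6). Transcripts of the viral T antigen were not analysed here, and protein sequences were not used here.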

Additional observations from a re-analysis of the deposited data

Results flagged for a closer look

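Of 84 sets of 4 libraries (42 members at each temperature), 3 had 1 library far from the other 3 (Dixon's test of the gap to the nearest library over the whole range), a number below the 1 in 20 that chance gives. Polr1c was at 48.9 CPM in 37 °C replicate 4, with the other 3 libraries between 42.4 and 43.2 CPM. Ddx21 was at 91.7 CPM in 37 °C replicate 2, with the others between 81.5 and 82.9 CPM. Nhp2 was at 119 CPM in 39 °C replicate 1, with the others between 154.6 and 157 CPM.

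The difference between cells with and without Mki67 UMIs was not the same at both temperatures in 10 members, by the interaction term of the edgeR fit. The term (39 °C minus 37 °C, log2) was 0.71 for Nop56, 0.51 for Dkc1, 0.33 for Nolc1, 0.31 for Gnl3, 0.30 for Wdr43, 0.25 for Nop58 and 0.11 for Ncl. It was -0.16 for Npm1, -0.29 for Brix1 and -0.31 for Imp3. Adjusted p-values ran from 6.05e-20 (Nop56) to 0.042 (Ncl).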

How the results depend on the processing

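Of the 35 members that passed between temperatures in all cells, 31 passed under all 18 alternatives, and Imp3, Pes1, Polr1a and Utp4 did not. In cells without Mki67 UMIs 30 of 32 did so under 19 alternatives, in cells with them 6 of 26, in the class difference 4 of 13 at 37 °C and 10 of 15 at 39 °C, and in the interaction 4 of 10.

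In thinned cells, which leave fewer counts per sum, members between temperatures in Mki67-positive cells numbered 6 lower and 0 higher, class differences at 37 °C 9 lower and 3 higher, and the interaction 1 lower. Genes passing in all numbered 2107 in thinned against 4832 in unthinned cells (temperature, Mki67-positive cells), 3238 against 5165 (class, 37 °C), 2341 against 4133 (class, 39 °C) and 1042 against 1957 (interaction). With at least 2 Mki67 UMIs to enter the positive class the temperature counts were 15 lower and 1 higher, and 7 members were lower by class at 37 °C. With totals only, 8 members were lower by class at 37 °C. Without the library block the class counts at 37 °C were 1 lower and 4 higher, and the interaction had 3 members more positive and 926 genes in all. DESeq2 gave 1261 genes for the interaction. The cause of the last 2 was not tested.

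The sign changed in thinned cells for the class difference at 37 °C of Ddx21 (-0.1495), Fbl (-0.1563), Nop56 (-0.0858) and Npm1 (-0.0842). It also changed for the temperature difference of Imp3 in Mki67-positive cells (0.0028). Of these, Nop56 (adjusted p = 0.131) and Imp3 (adjusted p = 0.996) did not pass in thinned cells, so they show no reversed difference.

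With libraries left out, members higher in Mki67-positive cells numbered 1 to 3, members lower by class at 37 °C 2 to 5, and members with a more positive interaction 4 to 8. The Mki67 share differed by -51.3 to -48.5 points, at an exact permutation p of 0.0571 each time, the smallest that 3 against 4 libraries allow, and median UMIs by -4345 to -1016.

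The deviations of same-numbered libraries had correlations of -0.12, -0.11, -0.08 and 0.24. Over all pairs across the temperatures they ran from -0.27 to 0.28. So few libraries cannot show whether same-numbered ones belong together. With the number as a replicate block, 31 members were lower and 4 higher in all cells (9617 genes in all), 30 and 2 in cells without and 23 and 2 in cells with Mki67 UMIs. For depth, the rarest member, Polr1b, had 1276 UMIs in all and 7 in its smallest sum.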
